A study of Mus musculus with 10 samples.

Results

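Open chromatin was examined around 6 genes of the ETS family of transcription factors that are active in blood progenitors: Erg, Fli1, Ets1, Ets2, Etv6 and Elf1. Accessible regions were built by merging the peaks of 10 mouse bone marrow ATAC-seq libraries on chromosomes 1 to 19 and X wherever peaks overlapped by at least 1 bp. A region was assigned to a gene when its centre lay inside the gene or within 50 kb of either end. Of 114366 merged regions, 202 met this rule. Etv6 had 71 regions, Fli1 39, Erg 35, Ets1 28, Elf1 25 and Ets2 7, and 3 of these regions lay between Fli1 and Ets1 within the windows of both genes.

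ATAC-seq uses a transposase that inserts into DNA not wrapped on nucleosomes, so a peak marks open chromatin at a promoter, an enhancer or another regulatory site. The cells were primary bone marrow progenitors of C57BL/6 mice, enriched magnetically and then sorted by flow cytometry, with 2 libraries per group. The first group was monocyte-dendritic cell progenitors labelled IRF8KO (IRF8KO MDP), sorted as Lin–, Sca-1–, CD117+, IL-7R– and CD115+ cells. Wild-type cells came from 4 stages: long-term hematopoietic stem cells (LT-HSC, which are Lin–, CD117+, Sca-1+, CD135–, CD48– and CD150+), lymphoid-primed multipotent progenitors (LMPP, which are Lin–, CD117+, Sca-1+ and CD135+), monocyte-dendritic cell progenitors (WT MDP, with the sort markers of the IRF8KO MDP) and common dendritic cell progenitors (CDP, which are Lin–, Sca-1–, CD117int, IL-7R–, CD115+ and CD135+). The labels give no allele behind IRF8KO and no age of the mice. Biological duplicates are stated for the wild-type cells only, so the spread between the knockout libraries may be technical. For the LMPP libraries, 1 label names short-term stem cells, but titles, design text and sort markers all say LMPP, which was used.

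ETS factors share a DNA-binding domain that recognises the core GGAA. ERG and FLI1 are close relatives that, with RUNX1, GATA2, TAL1, LYL1 and LMO2, occupy many enhancers of blood stem and progenitor cells, and ERG is needed to maintain the stem cell itself. FLI1 also acts in megakaryocyte development. ETS1 is best known from lymphocytes, ETS2 is a target of RAS and MAP kinase signalling that acts in macrophages, ETV6 is a repressor needed by adult stem cells, and ELF1 activates genes of several blood lineages. PU.1, encoded by Spi1, is a family member known to pair with IRF8 on composite ETS-IRF sites.

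Sequences of annotated gene starts are shown first, because they let a peak, or the lack of one, be seen against the start it belongs to. RefSeq promoter windows of GRCm38.p6, from 250 bases before to 50 after the start, matched 4 of the 6 genes by symbol, with 3 starts for Erg, 2 for Elf1 and 1 each for Ets2 and Etv6. Fli1 and Ets1 are named only. The Erg starts, the internal Elf1 start and the Ets2 start are printed 5′ to 3′, with the ETS core GGAA or its complement TTCC in capitals.
Erg start 1, chr16:95586544-95586843, minus strand: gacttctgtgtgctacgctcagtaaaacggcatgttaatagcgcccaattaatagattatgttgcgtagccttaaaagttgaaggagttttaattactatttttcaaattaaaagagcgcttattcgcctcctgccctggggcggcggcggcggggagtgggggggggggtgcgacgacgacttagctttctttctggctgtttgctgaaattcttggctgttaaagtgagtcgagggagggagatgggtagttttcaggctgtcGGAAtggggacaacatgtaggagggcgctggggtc
Erg start 2, chr16:95530316-95530615, minus strand: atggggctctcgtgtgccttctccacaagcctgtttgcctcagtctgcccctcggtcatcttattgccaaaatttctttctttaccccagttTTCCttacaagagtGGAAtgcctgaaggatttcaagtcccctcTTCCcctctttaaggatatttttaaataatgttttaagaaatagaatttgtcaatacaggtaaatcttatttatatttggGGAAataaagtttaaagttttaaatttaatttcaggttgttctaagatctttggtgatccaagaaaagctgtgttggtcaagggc
Erg start 3, chr16:95459299-95459598, minus strand: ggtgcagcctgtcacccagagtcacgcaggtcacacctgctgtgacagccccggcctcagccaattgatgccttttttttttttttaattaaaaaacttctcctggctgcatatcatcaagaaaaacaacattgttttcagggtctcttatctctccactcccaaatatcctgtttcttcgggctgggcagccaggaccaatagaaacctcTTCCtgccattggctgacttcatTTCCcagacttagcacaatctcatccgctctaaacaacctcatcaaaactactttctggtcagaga
Elf1 start 2, chr14:79515424-79515723, plus strand: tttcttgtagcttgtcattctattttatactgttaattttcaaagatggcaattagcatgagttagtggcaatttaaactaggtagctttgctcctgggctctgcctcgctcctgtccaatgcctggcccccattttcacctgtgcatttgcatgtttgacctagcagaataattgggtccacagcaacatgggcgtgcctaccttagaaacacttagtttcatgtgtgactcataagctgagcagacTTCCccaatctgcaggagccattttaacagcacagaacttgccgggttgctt
Ets2 start, chr16:95702157-95702456, plus strand: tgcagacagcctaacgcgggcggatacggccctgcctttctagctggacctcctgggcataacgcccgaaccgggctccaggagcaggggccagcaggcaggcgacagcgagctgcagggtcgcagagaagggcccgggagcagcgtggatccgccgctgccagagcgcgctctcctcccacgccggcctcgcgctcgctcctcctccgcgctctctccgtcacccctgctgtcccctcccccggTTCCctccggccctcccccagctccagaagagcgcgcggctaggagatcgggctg

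Erg start 1, at the upstream end of the gene, had no region over its window, and the nearest region ended 193 bp away. Erg start 2 had no region within 26799 bp. Erg start 3, deep inside the gene, lay under a region detected in all 10 libraries, as did both Elf1 starts, the Ets2 start and the Etv6 start. All windows were searched on both strands for GGAA, the longer ETS site GGAAGT, the GATA site AGATAA, the RUNX site TGTGGT, the E-box CAGCTG and the ETS-IRF composite GGAANNGAA, of which the longer site and the composite contain the core. The core was found in all 7 windows, with 1, 4 and 2 matches at Erg starts 1, 2 and 3, with 2 and 1 at Elf1 starts 1 and 2, with 1 at Ets2 and 6 at Etv6. It was also found in 96% of the 32619 promoter windows of all genes. Erg start 3 held 1 GATA site, which 11.2% of all windows hold, and 1 composite, which 8.14% hold. Elf1 start 2 held 1 longer ETS site, which 23.9% hold. The RUNX site (16.6% of all windows) and the E-box (16.4%) were in none of the 7 windows.

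Each library had its own peak list, and detection of a region means an overlapping peak in the list concerned. LT-HSC replicate 1 stood apart, with 31325 peaks and 19.3% of tags in peaks, against 50728 to 69598 peaks and 38.1% to 53.7% of tags in the other libraries. Total tags ranged from 4790046 to 10166833, and the CDP libraries were the deepest. The lists carry no tag count per peak, so detection is compared, and a missing peak says only that none was called at that depth. In sorted populations a site open in more cells and a site more open in each cell cannot be told apart. Over 5 stem cell genes, 29 to 30 regions were detected in IRF8KO MDP, 35 to 78 in LT-HSC, 84 to 93 in LMPP, 51 to 55 in WT MDP and 41 to 47 in CDP. Over 5 monocyte and dendritic progenitor genes the numbers were 51 to 56 in IRF8KO MDP, 12 to 20 in LT-HSC, 28 to 29 in LMPP, 57 to 60 in WT MDP and 73 to 78 in CDP. These 5 genes include Irf8, with 14 and 17 regions in IRF8KO MDP against 22 and 18 in WT MDP. In the same order, Csf1r had 10 and 10 against 9 and 11, and Cx3cr1 12 and 13 against 12 and 14. Ly6c2 had 12 and 13 against 12 and 11, and F13a1 3 and 3 against 5 and 3. None of these marker counts is divided by list length. Of the marker genes of all lists, Cd8a, Ctsg and Tek had no region in at least 1 library. Peaks at Irf8 carry no check of the knockout.

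The 6 loci together held 97 and 102 detected regions in the IRF8KO MDP libraries. Over the wild-type stages they held 58 and 108 in LT-HSC, 119 and 116 in LMPP, 113 and 115 in WT MDP, and 125 and 114 in CDP. Per 10000 regions detected in the same library this was 17.8 to 21.3 in every library, so the sum over the 6 genes changed little once the length of the list was divided out. The single loci did not follow that sum.

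Erg had the most regions in the MDP groups. It had 27 and 25 regions in IRF8KO MDP, and over the stages 6 and 12 in LT-HSC, 12 and 15 in LMPP, 24 and 23 in WT MDP, and 24 and 20 in CDP. Per 10000 detected regions the mean was 5.16 ± 0.548 in IRF8KO MDP, against 3.86 ± 0.209 in WT MDP (SD, n = 2 each). The other stages had 2.18 ± 0.268 in LT-HSC, 2.18 ± 0.32 in LMPP and 3.32 ± 0.27 in CDP (SD, n = 2 each). Both IRF8KO MDP libraries were above all others, and the LT-HSC and LMPP libraries, which overlapped each other, were below all others.

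Fli1 ran the other way over the stages. It had 16 and 17 regions in IRF8KO MDP, and over the stages 14 and 26 in LT-HSC, 29 and 29 in LMPP, 18 and 21 in WT MDP, and 22 and 22 in CDP. Relative to all detected regions, IRF8KO MDP had 3.27 ± 0.0295 per 10000, LT-HSC 4.88 ± 0.346, LMPP 4.68 ± 0.0468, WT MDP 3.2 ± 0.271 and CDP 3.33 ± 0.158 (SD, n = 2 each). LT-HSC and LMPP lay above the other groups without overlap, and the values of IRF8KO MDP, WT MDP and CDP overlapped.

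Ets1 was lowest in CDP. Its regions numbered 16 and 16 in IRF8KO MDP, and over the stages 6 and 15 in LT-HSC, 16 and 17 in LMPP, 13 and 14 in WT MDP, and 11 and 9 in CDP. Per 10000 detected regions CDP had 1.51 ± 0.142 and IRF8KO MDP 3.17 ± 0.164, against 2.21 ± 0.0627 in WT MDP (SD, n = 2 each), with no overlap among these groups. The LT-HSC libraries, at 1.99 and 2.96 per 10000, spanned the WT MDP values.

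Ets2 had 4 and 3 regions in IRF8KO MDP, and over the stages 2 and 4 in LT-HSC, 2 and 2 in LMPP, 5 and 6 in WT MDP, and 7 and 6 in CDP. It was lowest in LMPP, whose libraries had 0.325 and 0.32 per 10000 detected regions, against 0.663 and 0.789 in LT-HSC. Etv6 had 25 and 29 in IRF8KO MDP, and over the stages 21 and 37 in LT-HSC, 43 and 41 in LMPP, 37 and 38 in WT MDP, and 43 and 41 in CDP. Per 10000 detected regions, Etv6 was lowest in IRF8KO MDP, with 5.34 ± 0.283 against 6.16 ± 0.0322 in WT MDP (SD, n = 2 each). Elf1 had 11 and 14 in IRF8KO MDP, and over the stages 11 and 17 in LT-HSC, 19 and 15 in LMPP, 17 and 15 in WT MDP, and 20 and 17 in CDP. Per 10000 detected regions its LT-HSC libraries, at 3.64 and 3.35, were above the rest, and the other groups overlapped. With 2 libraries against 2, an exact two-sided permutation test cannot give a p-value below 0.333, so no difference between groups is called by a test.

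**Figure D1:**
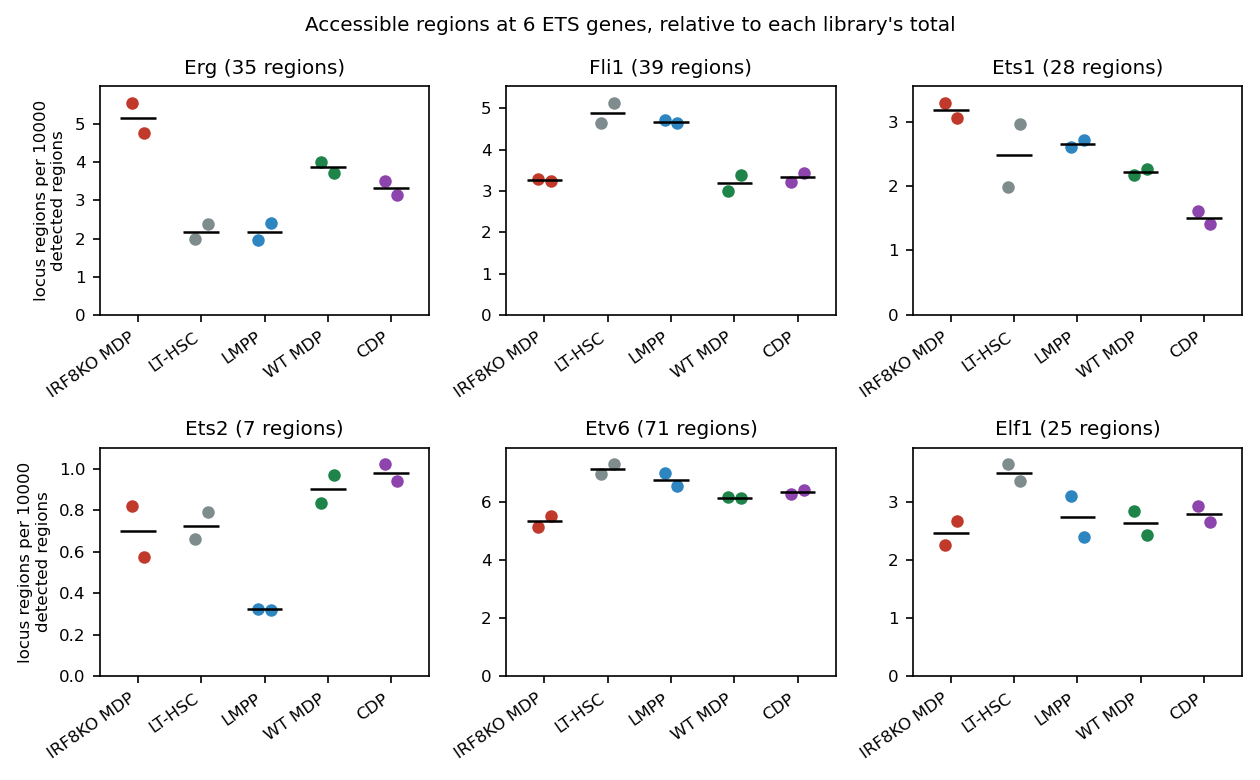
Regions detected at each of the 6 genes per 10000 regions detected in the same library (y axis, from 0), by group. Points are the 2 libraries of a group and lines their mean. Erg was highest in IRF8KO MDP (mean 5.16), Fli1 in LT-HSC (4.88) and LMPP (4.68), and Ets1 was lowest in CDP (1.51).

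For single regions, a region was called gained in the first-named group of a comparison when both of its libraries and neither library of the other group detected it, and lost in the opposite case. The 5 comparisons share libraries (WT MDP enters 3 of them), so their counts are given side by side only. In LMPP against LT-HSC, 17 of the 202 regions were gained (8.42%) and 0 lost, where 12.7% of all merged regions were gained and 1.62% lost. In WT MDP against LMPP, 20 were gained (9.9%) and 18 lost (8.91%), against 10.3% and 10.6% of all regions. In CDP against WT MDP, 10 were gained (4.95%) and 8 lost (3.96%), against 6.48% and 3.64% of all. In CDP against LT-HSC, 45 were gained (22.3%) and 9 lost (4.46%), against 24.1% and 5.40% of all. In IRF8KO MDP against WT MDP, 7 were gained (3.47%) and 18 lost (8.91%), against 2.69% and 8.99% of all. Over the 6 genes as a whole these shares lay near those of all regions, apart from the lower share gained in LMPP against LT-HSC. With every list shortened to the length of the shortest, that share was 4.46%, against 4.32% of all regions. What follows is by locus.

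**Figure D2:**
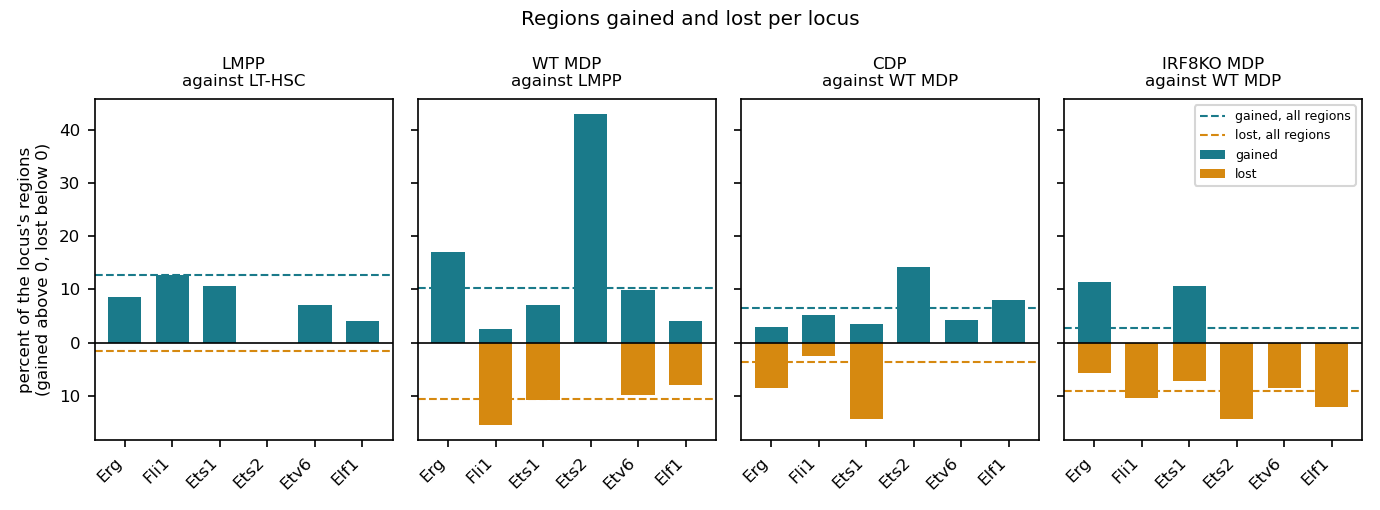
Percent of the regions of each locus gained (bars above 0) and lost (bars below 0) in 4 comparisons, with dashed lines at the percent of all 114366 merged regions gained or lost. In WT MDP against LMPP, Erg gained 17.1% and lost none, while Fli1 gained 2.56% and lost 15.4%. Ets2 has 7 regions, so 1 region is 14.3% there.

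In LMPP against LT-HSC, the numbers of regions gained and lost depended on different LT-HSC libraries. Fli1 and Etv6 gained 5 regions each, Erg and Ets1 3 each, Elf1 1 and Ets2 0. Without LT-HSC replicate 1, 18 regions were gained and 16 lost, and all merged regions then had 13% gained and 6.76% lost. Without LT-HSC replicate 2, 44 were gained (21.8%) and 0 lost, against 23.6% and 1.94% of all merged regions. Leaving out LMPP replicate 1 gave 29 gained (14.4%) and 1 lost (0.495%), against 18.5% and 2.12% of all. Leaving out LMPP replicate 2 gave 32 gained (15.8%) and 3 lost (1.49%), against 17.5% and 1.99% of all.

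In WT MDP against LMPP, Erg gained 6 regions and lost 0, whereas Fli1 gained 1 and lost 6. Among 11303 protein-coding genes with 10 or more regions, 157 had a count of gained minus lost regions as high as that of Erg or higher, and 256 had one as low as that of Fli1 or lower. These counts are not divided by the number of regions of a gene, so large loci can reach more. As shares, Erg gained 17.1% of its regions and lost 0, and Fli1 gained 2.56% and lost 15.4%. Of all regions, 10.3% were gained and 10.6% lost. With any 1 of the 4 libraries left out, the count of gained minus lost was 7 to 10 at Erg and -8 to -5 at Fli1. Each list was then shortened to its first 31325 rows, the length of the shortest list. Erg had 3 gained and 1 lost, but Fli1 had 2 gained and 1 lost, so its direction turned. Over all merged regions, 5.75% were gained and 6.04% lost with this cut. The cut keeps 31325 of 63349 and 64181 LMPP rows. All Fli1 losses but chr9:32564257-32565092 had their LMPP peaks past it, so those losses could not be kept. At full length, Ets1 gained 2 and lost 3, and Ets2 gained 3 and lost 0. Etv6 gained 7 and lost 7, and Elf1 gained 1 and lost 2. Over the 6 genes, the regions lost numbered 31 without LMPP replicate 1 (15.3%, against 15.2% of all). They numbered 30 without LMPP replicate 2 (14.9%, against 14.6% of all).

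Peaks are placed below by list position, which is the row of a peak as a percent of the rows of its own list, with 0 at the top. It takes the rows as sorted by strength, which the files do not state, and it also follows width, since wide peaks stood near the top in all libraries. The lists differ in length, so a position places a peak within its own list and is not by itself a change between libraries.

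Erg lies on the minus strand at chr16:95359169-95586600, and 27 of its 35 regions were inside the gene. The annotation used gives gene spans only, so regions inside a gene are not divided into exons and introns. Most peaks lay in the part of the gene between internal start 3 and the 3′ end. A block of 6 regions detected in all 10 libraries ran from chr16:95434068-95435222 to chr16:95458074-95459967, which covers start 3. Its widest region, chr16:95437888-95442594, lay 146 kb downstream of the upstream end of the gene. It was the first Erg peak of the list in all libraries but CDP replicate 2 and both IRF8KO MDP libraries. At the upstream end, chr16:95585216-95586351 was detected in 9 libraries, all but LT-HSC replicate 1.

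The 6 Erg regions gained in WT MDP against LMPP were of different kinds. Of these, chr16:95384414-95385286 and chr16:95425973-95426668 were found in all 4 libraries of WT MDP and CDP and in none besides. At chr16:95384414-95385286 the list positions were 32.4% and 31.5% in WT MDP and 25.8% and 25.5% in CDP, which gave it place 3 or 4 among the Erg peaks of each of these lists. Another pair, chr16:95415826-95416883 and chr16:95464313-95465291, was detected in both IRF8KO MDP and both WT MDP libraries and in no other, so it was absent from CDP. The remaining regions lay beyond the upstream end of the gene. At 18.9 kb, chr16:95605183-95605844 was found in the WT MDP and CDP libraries and in 1 of IRF8KO MDP, and at 25.7 kb, chr16:95611877-95612688 was detected in both libraries of WT MDP, CDP and IRF8KO MDP.

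Against WT MDP, CDP gained 1 Erg region and lost 3. The gained one, chr16:95558377-95559005, was detected in CDP alone, at 57.4% and 63.2%. The losses were the pair shared with IRF8KO MDP and chr16:95570425-95571087, which was near the end of the list in WT MDP replicate 2 (95.8%).

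In IRF8KO MDP against WT MDP, Erg gained 4 regions and lost 2, which are 11.4% and 5.71% of its regions, against 2.69% and 8.99% of all. The gained regions chr16:95388203-95388973, chr16:95407804-95408617 and chr16:95427466-95427975 were detected in IRF8KO MDP alone, and chr16:95385297-95385933 was found also in LT-HSC replicate 2. This one lies just 10 bp after the end of chr16:95384414-95385286, 1 of the 2 regions lost, so the peaks of the genotypes were neighbours that did not overlap. The other region lost was chr16:95425973-95426668.

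The order of the Erg peaks within the lists also differed between the MDP genotypes. At chr16:95348476-95350995, beyond the 3′ end of the gene, the peak was the second and the first of the Erg peaks in the IRF8KO MDP lists, against place 14 and 17 in the WT MDP lists. Its list positions were 13.1% and 10.7% in IRF8KO MDP, against 62.8% and 71.8% in WT MDP. The region chr16:95415826-95416883 had place 3 and 2 in IRF8KO MDP (18.3% and 13.2%), against 11 and 7 in WT MDP (50.9% and 43.7%). Conversely, chr16:95418396-95419851 had place 25 in both IRF8KO MDP lists (95.4% and 99%), against 8 and 10 in WT MDP (40.5% and 49.2%). The region that led the WT MDP lists, chr16:95437888-95442594, had place 6 and 7 in IRF8KO MDP, against place 1 in both WT MDP lists. These places compare Erg peaks with each other inside a list and do not depend on its length, and the difference, with 2 libraries a group, was not tested.

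Fli1 spans chr9:32422204-32543432, and 20 of its 39 regions were inside it. Its lead peaks stood near the top of every list. The region chr9:32538747-32545123, 6377 bp wide and over the higher-coordinate end of the gene, lay between 0.497% and 4.82% of every list. The region chr9:32505907-32511456, 5550 bp wide and inside the gene, lay between 0.279% and 3.61% in all libraries but LT-HSC replicate 1, where it was at 11%. Each library had these as its first and second Fli1 peaks, in either order.

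The 6 Fli1 regions lost in WT MDP against LMPP were spread over the whole window. Of these, 3 began at 32388053, 32400327 and 32408992, below the lower-coordinate end, 2 inside the gene at 32480271 and 32489235, and 1 beyond the other end at 32564257. Their list positions in LMPP were 61.4% to 92.7% for all but chr9:32564257-32565092, which was at 46% and 46.5% and was detected in LMPP alone. The region chr9:32400327-32401510 was at 41.5% and 21.6% in LT-HSC and 78.6% and 86.7% in LMPP, and no WT MDP, CDP or IRF8KO MDP library had it. The single gain was chr9:32392494-32393244, found in all 4 libraries of WT MDP and CDP and in none besides. It lies inside the neighbouring gene Kcnj1, as does the loss that began at 32388053, so both may be counted to either gene.

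CDP gained 2 Fli1 regions and lost 1 against WT MDP. The loss, chr9:32555143-32556977, 12.6 kb beyond the higher-coordinate end, had positions of 59.9% and 76.9% in IRF8KO MDP, and over the stages 13% and 9.62% in LT-HSC, 14.6% and 24.7% in LMPP, and 73.7% and 43.3% in WT MDP. No CDP library had a peak there. Among the Fli1 peaks of a list it had place 9 and 13 in IRF8KO MDP, and over the stages 3 in both LT-HSC lists, 4 and 7 in LMPP, and 15 and 8 in WT MDP. Of the gains, chr9:32512446-32513267 was detected in CDP alone.

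In IRF8KO MDP against WT MDP, Fli1 gained 0 regions and lost 4, or 10.3% of its regions, near the 8.99% of all regions. The losses were chr9:32392494-32393244, chr9:32394249-32395305, chr9:32503866-32504619 and chr9:32530956-32531639, at 57.4% to 98.1% of the WT MDP lists. Of these, chr9:32392494-32393244 and chr9:32394249-32395305 lie inside Kcnj1. With the lists shortened to equal length, 0 were gained and 0 lost. That cut keeps the first 31325 of 62130 and 64515 WT MDP rows. The WT MDP peaks of all 4 losses lay past it, so these losses could not be kept. A wide region beside the lead peak, chr9:32499409-32503189, was the Fli1 peak of place 7 and 11 in IRF8KO MDP (53.3% and 69.4%), against place 3 in both WT MDP lists (11.4% and 13.2%).

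Ets1 spans chr9:32636241-32757820, 92.8 kb from Fli1, with 19 of its 28 regions inside. The region chr9:32695344-32697194 was detected in all 10 libraries at 3.6% to 8.78% and was the first or second Ets1 peak of each list. The region chr9:32671806-32673286 was also detected in all 10. Its positions were 33.8% and 46% in IRF8KO MDP, 6.86% and 4.79% in LT-HSC, and 4.85% and 3.8% in LMPP. They were 35.3% and 34.2% in WT MDP and 48% and 48.8% in CDP. By position, the LT-HSC and LMPP libraries were apart from all others. Its place among the Ets1 peaks was 5 and 9 in IRF8KO MDP, and 2 and 1 in both LT-HSC and LMPP. It was 2 in both WT MDP lists and 3 and 2 in CDP, so WT MDP was not apart by place. At the lower-coordinate end of the gene, chr9:32635865-32636499 was detected in 7 libraries.

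At Ets1, CDP gained 1 region and lost 4 against WT MDP, or 14.3% of its regions against 3.64% of all. Among the 11303 genes, 160 had a count of gained minus lost regions as low or lower, and the count stayed between -4 and -3 with any 1 library left out and was -5 with the lists shortened. It was -1 when a peak had to cover at least 50% of the merged region. The losses chr9:32653241-32655157, chr9:32676150-32677050, chr9:32705549-32706761 and chr9:32709358-32710821 all lay inside the gene. At chr9:32705549-32706761 the positions were 14.1% and 19.9% in IRF8KO MDP, and over the stages 44.9% and 24.3% in LT-HSC, 5.33% and 4.61% in LMPP, and 55.5% and 45.8% in WT MDP, with no peak in CDP. All 4 regions were detected in both IRF8KO MDP libraries. The gain, chr9:32615679-32616601, was found in the 4 libraries of LMPP and CDP and in none besides.

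The Ets1 losses in WT MDP against LMPP were chr9:32612264-32614092, chr9:32615679-32616601 and chr9:32745747-32746430. The first of these was at 19.1% and 12.6% in LMPP, at 92.1% in LT-HSC replicate 2, and in no other library. The gains chr9:32652134-32652805 and chr9:32653241-32655157 are neighbours, 435 bp apart, with different patterns. The first was in WT MDP and CDP and not in IRF8KO MDP, and the second was in IRF8KO MDP and WT MDP and not in CDP.

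In IRF8KO MDP against WT MDP, Ets1 gained 3 regions and lost 2. These are 10.7% and 7.14% of its regions, against 2.69% and 8.99% of all. The gains chr9:32656716-32657379 and chr9:32730653-32731160 were detected in IRF8KO MDP alone, and chr9:32735080-32736441 also in CDP replicate 2. The losses were chr9:32652134-32652805 and chr9:32715950-32716522. The region chr9:32653241-32655157 was the Ets1 peak of place 3 and 2 in IRF8KO MDP (16.4% and 14.1%), against place 4 and 5 in WT MDP (42.3% and 44.5%).

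**Figure D3:**
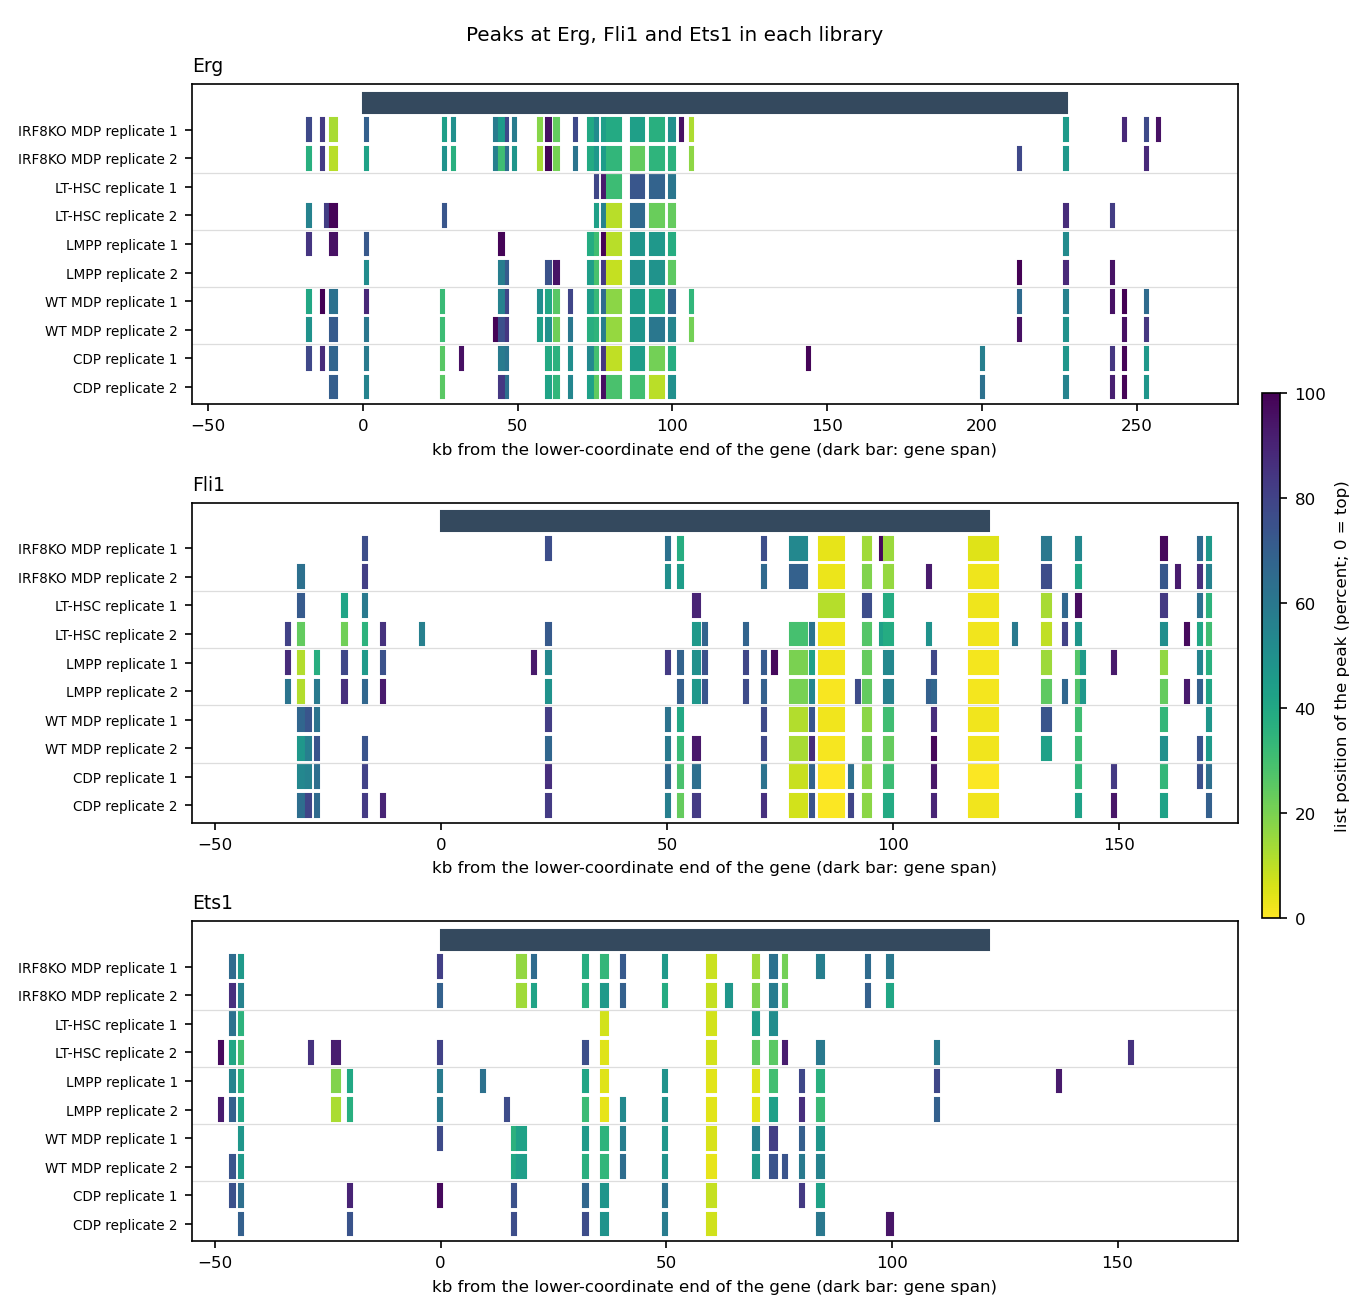
Peaks at Erg, Fli1 and Ets1 in each library (rows), by distance in kb from the lower-coordinate end of the gene (dark bar). Each box is a merged region (at least 0.9 kb is drawn), coloured by list position in percent with 0 at the top of the list. The Erg block detected in all 10 libraries, the wide Fli1 lead peaks, and the Ets1 regions absent from CDP can be seen.

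Ets2 lies on the plus strand at chr16:95702407-95721049, 116 kb from the upstream end of Erg, and had 7 regions. The region over its start, chr16:95701463-95703313, was detected in all 10 libraries and was the first Ets2 peak of every list. Its positions were 6.96% and 6.1% in IRF8KO MDP, and over the stages 16% and 7.37% in LT-HSC, 18.9% and 22.8% in LMPP, 5.68% and 7.25% in WT MDP, and 5.52% and 5.42% in CDP, with LMPP the furthest down. The region chr16:95728541-95729544, 7.99 kb beyond the 3′ end, was also detected in all 10.

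Ets2 gained 3 regions in WT MDP against LMPP, and LMPP had only the 2 regions found in all libraries. Of the gains, chr16:95674188-95675007, 27.8 kb upstream of the start, was detected in both WT MDP libraries (43.9% and 31.5%), in CDP (29% and 33%) and nowhere else, so it was lost in IRF8KO MDP against WT MDP. The others were chr16:95658754-95659939 and chr16:95708054-95709173, which LT-HSC replicate 2 also had. The gain in CDP against WT MDP was chr16:95724082-95724599, detected in CDP alone.

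Etv6 lies on the plus strand at chr6:134035700-134270158, and 59 of its 71 regions were inside. The region over its start, chr6:134034179-134045832, spanned 11654 bp, was the widest of the 202, also covers an end of the neighbouring gene Gm46977, and lay within 0.345% to 2.07% of every list. In all, 11 Etv6 regions were detected in all 10 libraries (15.5%, against 17% of all merged regions). A further 14 were detected in 1 library (19.7%, against 19.1% of all).

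Against LMPP, WT MDP gained 7 Etv6 regions and lost 7. The losses, which began at 134104371, 134147412, 134174863, 134182382, 134207428, 134236186 and 134270211, were inside the gene or just past its 3′ end, and no CDP library had any of them. The gains included chr6:133997378-133998027, chr6:134001641-134002510, chr6:134069801-134070618 and chr6:134225253-134226141, each found in all 4 libraries of WT MDP and CDP and in none besides. CDP gained 3 Etv6 regions and lost 0 against WT MDP, and chr6:134136340-134137274, chr6:134310142-134310675 and chr6:134314415-134314950 were detected in CDP alone.

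In IRF8KO MDP against WT MDP, Etv6 gained 0 regions and lost 6, or 8.45% of its regions, a share close to that of all regions. Among the 11303 genes, 96 had a count of gained minus lost regions as low or lower, in a list where large loci can lose more. The losses were the 4 regions named above, chr6:134261550-134263452 and chr6:134276733-134277534. With the lists shortened, 2 were gained and 4 lost. Without IRF8KO MDP replicate 2, 2 were gained (2.82%) and 12 lost (16.9%), against 4.5% and 11.9% of all.

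At Etv6 the order of peaks within the lists also differed. The region chr6:134219447-134221289 was the Etv6 peak of place 21 and 20 in IRF8KO MDP (86% and 58.2%), against place 3 in both WT MDP lists (5.39% and 8.49%). Over the stages it had place 10 and 11 in LT-HSC, 8 in both LMPP lists, 3 in WT MDP and 2 in both CDP lists. The region chr6:134185594-134187961 ran the other way over the stages, with place 2 in all LT-HSC and LMPP lists, 7 and 5 in WT MDP, and 38 and no peak in CDP. It had place 3 and 2 in IRF8KO MDP, against 7 and 5 in WT MDP.

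Elf1 lies on the plus strand at chr14:79481174-79582491, with 19 of its 25 regions inside. The region over its first start, chr14:79480357-79483304, lay at 1.32% to 6.73% and was detected in all 10 libraries, as was chr14:79515166-79517318 over the internal start, at 17.7% to 50.7%. The first of these also covers an end of Wbp4. A further region detected throughout, chr14:79586654-79588261 at 3.84% to 6.99%, lies beside an end of Sugt1 and may be counted to either gene.

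At Elf1, WT MDP against LMPP had 1 gained, chr14:79460550-79461581, and 2 lost, chr14:79503509-79504212 and chr14:79537222-79538143. The gained region lies inside Wbp4 and may be counted to either gene. Against WT MDP, CDP gained chr14:79485392-79486126 and chr14:79606369-79606889, the second detected in CDP alone, and lost 0. The second lies inside Sugt1. In IRF8KO MDP against WT MDP, 0 were gained and 3 lost, or 12% of its 25 regions, against 8.99% of all regions. The losses were chr14:79460550-79461581 inside Wbp4, chr14:79529368-79531102 and chr14:79541496-79543199. Of the losses, chr14:79529368-79531102 was at 27.5% and 10.4% in LT-HSC, 24.7% and 29.8% in LMPP, 94.9% and 58% in WT MDP, and 69.3% and 50.9% in CDP. With the lists shortened, 0 were gained and 0 lost. The WT MDP peaks of all 3 losses, at 58% to 94.9%, lay past the cut, so these losses could not be kept.

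**Figure D4:**
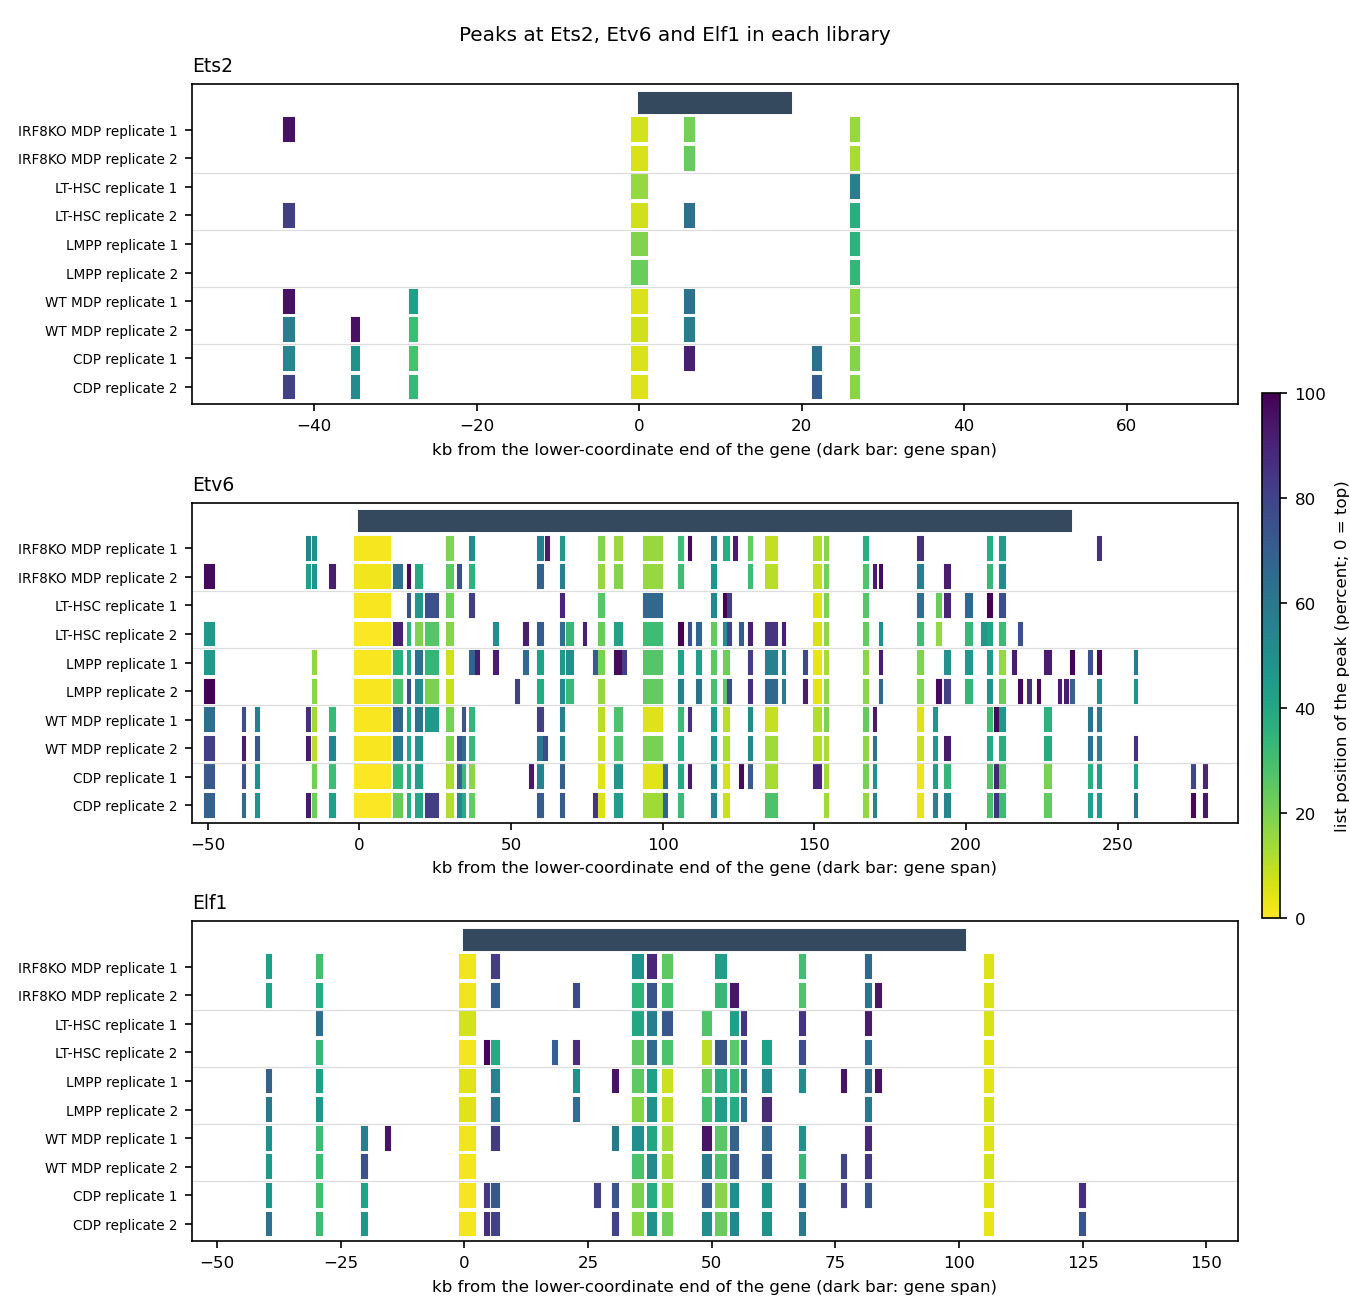
Peaks at Ets2, Etv6 and Elf1 in each library (rows), by distance in kb from the lower-coordinate end of the gene (dark bar). Each box is a merged region (at least 0.9 kb is drawn), coloured by list position in percent with 0 at the top of the list. The regions over the start of Etv6 and the first start of Elf1 lie within 2.07% and 6.73% of every list, that over the Ets2 start within 22.8%, and 4 Etv6 regions found only in WT MDP and CDP are missing from IRF8KO MDP.

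The knockout comparison depends on list length over the 6 genes as a whole. The IRF8KO MDP lists were shorter, with 50728 and 54277 peaks against 62130 and 64515 in WT MDP. With all lists shortened to the same length, 14 of the 202 regions were gained (6.93%) and 7 lost (3.47%), where 2.93% of all merged regions were gained and 3.56% lost. Of the 14, Erg held 9, which is 25.7% of its regions, against 1 lost. More Erg regions were thus called gained with equal lists, but some were detected in both WT MDP libraries at full length. Among these were chr16:95348476-95350995, at 62.8% and 71.8% of the WT MDP lists, and chr16:95436398-95437287, at 65.4% and 58.2%. Their WT MDP peaks lay past the cut, so the larger count is not only of regions without a WT MDP peak. The losses at Fli1 and Elf1 also had WT MDP peaks past the cut, so the shortened lists could not keep them. At full length, leaving out WT MDP replicate 2 gave 11 gained (5.45%) and 23 lost (11.4%), against 4.26% and 12.9% of all. Leaving out IRF8KO MDP replicate 1 gave 13 (6.44%) and 24 (11.9%), against 5.86% and 10.8%. Leaving out IRF8KO MDP replicate 2 gave 12 (5.94%) and 27 (13.4%), against 4.5% and 11.9%. The stem cell marker genes had 30 and 29 regions in IRF8KO MDP, against 51 and 55 in WT MDP. The neutrophil genes had 46 and 46, against 49 and 51. These counts are not divided by list length. In all, the IRF8KO MDP libraries detected 48661 and 52366 regions, against 59890 and 61966 in WT MDP. The part of the marker genes in the result was not tested.

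Across all stages, CDP against LT-HSC, Erg gained 11 regions and lost 0, Etv6 gained 16 and lost 3, Fli1 gained 8 and lost 3, Elf1 gained 4 and lost 1, Ets1 gained 3 and lost 2, and Ets2 gained 3 and lost 0. Among the 11303 genes, whose median was 3 regions net, 267 reached the count of Erg or more and 134 that of Etv6. As shares, Erg gained 31.4% of its regions and lost none, whereas Etv6, with 71 regions, gained 22.5% and lost 4.23%, near the 24.1% and 5.40% of all regions. With the lists shortened, Erg had 3 gained and 1 lost and Etv6 9 gained and 5 lost. Without LT-HSC replicate 1, Erg had 11 gained and 2 lost. Fli1 then had 8 gained and 11 lost and Ets1 3 gained and 8 lost, so both turned to a net loss. The regions lost over the 6 genes rose to 35 (17.3%), against 14.3% of all regions. In CDP against WT MDP over the 6 genes, 16 regions were gained without WT MDP replicate 2 (7.92%, against 9.38% of all). Without CDP replicate 1, 14 were lost (6.93%, against 5.54% of all).

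The regions of the 6 genes resembled all regions in most features that the choice of genes did not use. Detection in all 10 libraries held for 34 of 202 (16.8%), against 17.0% of all merged regions, and detection in 1 library for 34 (16.8%), against 19.1%. Their median width was 859 bp against 752 bp, and 10 of them (4.95%) were 3 kb or wider, against 2.43%. In all, 10 regions were found in the WT MDP and CDP libraries and in none besides (4.95%, against 3.89% of all), with 4 at Etv6, 2 at Erg and 1 at each other gene. Among the 202 regions, the replicates of a group shared 74.6% of those that either detected in IRF8KO MDP. They shared 50.9% in LT-HSC, 70.3% in LMPP, 83.9% in WT MDP and 83.8% in CDP. Over all merged regions these shares were 75.4%, 56.7%, 76.6%, 77.2% and 80.6%, in the same order. Replicates thus shared less at the 6 genes in LT-HSC and LMPP, and more in WT MDP and CDP.

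The other ETS family genes give a setting. The 20 others listed had 256 regions. In IRF8KO MDP against WT MDP, 8 were gained and 26 lost, or 3.12% and 10.2%, against 2.69% and 8.99% of all regions. Against LMPP, WT MDP had 23 gained (8.98%) and 17 lost (6.64%), where 10.3% and 10.6% of all regions were. Spi1, which encodes PU.1, had 4 of 21 regions gained and 0 lost. In CDP against WT MDP, 20 were gained (7.81%) and 6 lost (2.34%), against 6.48% and 3.64% of all. Ehf, a family member best known from epithelia, had 4 of 9 regions gained and 0 lost. In LMPP against LT-HSC, 32 were gained (12.5%) and 3 lost (1.17%), against 12.7% and 1.62% of all. Etv5 had 6 of 15 regions gained and 0 lost. In CDP against LT-HSC, 67 were gained (26.2%) and 8 lost (3.12%), against 24.1% and 5.4% of all. Spi1, Ehf and Etv5 had the most regions gained of the 20 in the comparison concerned and were named after their values were seen. The 6 genes for partners of ERG and FLI1 had 140 regions, of which 16 were gained (11.4%) and 14 lost (10%) in WT MDP against LMPP, near the 10.3% and 10.6% of all regions. The extremes among them, also named after their values were seen, were Runx1, a regulator of blood stem cell emergence, with 10 of 42 regions gained and 1 lost, and Meis1, a homeobox gene of stem cells, with 0 of 31 gained and 7 lost. The partners had 5 gained (3.57%) and 14 lost (10%) in IRF8KO MDP against WT MDP, where 2.69% and 8.99% of all regions were.

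Genes whose number of regions per 10000 varied most like each locus over the 10 libraries were named among 11291 genes, as a description only, since the points share libraries and depth. Erg was most like Cd300lb (Pearson r = 0.982) and Gm27021 (0.979), Fli1 like Repin1 (0.987) and Nkain3 (0.983), and Ets1 like Usb1 (0.951) and Ddx49 (0.946). Ets2 was most like C1qtnf1 (0.985) and Pth2 (0.953), Etv6 like Diaph3 (0.962) and Enpp3 (0.95), and Elf1 like Ankrd42 (0.956) and Nat14 (0.935).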

How the data were processed

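ATAC-seq peak lists of 10 libraries (5 groups of 2) were used. The submitters' processing notes name Bowtie 1.1.2, HOMER 4.9 and the build mm10. HOMER's settings, per the file headers, were the same for all libraries: each was called alone without a control, at a 500 bp peak size and 1000 bp spacing, with a false discovery rate of 0.001, 4-fold enrichment over 10000 bp around the peak and 1 tag kept per bp. Whether reads were shifted for the transposase was not given in the sources used here. A score column that the authors deposited held 1 in every row and was not used, so row order stood in for strength, an assumption.

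Peaks were merged at 1 bp overlap with Python 3.11.15 and numpy 2.4.6 (Spearman correlations with scipy 1.17.1). Where several peaks of a library lay in a region, the one nearest the top of the list gave its position. Gene spans came from RefSeq GRCm38.p6, the assembly of mm10. Coordinates are 1-based, no blacklist was applied, and the merging and calling steps were tested on simulated data. All 6 genes were described. The regions to draw on were set by a rule: regions at gene starts or ends, regions gained or lost, regions in all 10 libraries, and regions of 1 group alone. Not every region that met the rule is named. Regions named for their place within a list were chosen after their values were seen. The members and lists were chosen with earlier results of these data known. Alternatives were a stricter overlap, lists shortened to 31325 rows, the gene span without its 50 kb flanks, and each library left out.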

Additional observations from a re-analysis of the deposited data

How the results depend on the processing

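The counts depend most on list length. With every list shortened to 31325 rows, LMPP against LT-HSC had 9 gained (4.46%) and 6 lost (2.97%), against 4.32% and 3.47% of all regions. WT MDP against LMPP had 14 (6.93%) and 10 (4.95%), against 5.75% and 6.04%. CDP against WT MDP had 5 (2.48%) and 9 (4.46%), against 2.82% and 2.51%. CDP against LT-HSC had 16 (7.92%) and 18 (8.91%), against 9.1% and 7.67%. IRF8KO MDP against WT MDP had 14 (6.93%) and 7 (3.47%), against 2.93% and 3.56%. A region whose peaks lie past the cut cannot be called. The detected regions and gene span counts given next are those that changed by more than a factor of 1.5. Regions detected were then 66 in IRF8KO MDP replicate 2, 64 in LT-HSC replicate 2, 63 and 51 in LMPP, 58 and 56 in WT MDP, and 54 and 51 in CDP. The gained minus lost count turned at Fli1 in LMPP against LT-HSC (-2), WT MDP against LMPP (1), CDP against WT MDP (-1) and CDP against LT-HSC (-6), and at Ets1 in CDP against LT-HSC (-5). Within gene spans alone, which hold 145 of the 202 regions, LMPP against LT-HSC had 9 gained, WT MDP against LMPP 10 gained and 11 lost, CDP against WT MDP 4 gained, CDP against LT-HSC 24 gained and IRF8KO MDP against WT MDP 11 lost, and Ets1 turned to 1 in WT MDP against LMPP. Asking a peak to cover at least 50% of the merged region, an alternative chosen after seeing the data, gave 2 lost in LMPP against LT-HSC and 30 regions in LT-HSC replicate 1, and moved the gained minus lost count of Ets1 in CDP against WT MDP to -1. The planned rule of 50% of the region or of the peak equals the 1 bp rule by construction, because each peak lies inside its merged region.

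With 1 library left out, LMPP against LT-HSC had 18 to 44 gained and 0 to 16 lost, WT MDP against LMPP 24 to 28 and 21 to 31, CDP against WT MDP 13 to 16 and 9 to 14, CDP against LT-HSC 47 to 64 and 9 to 35, and IRF8KO MDP against WT MDP 10 to 13 and 23 to 27. Fewer libraries must then meet the call, which by itself raises it. Without LT-HSC replicate 1 the count turned at Elf1 in LMPP against LT-HSC (-1) and, in CDP against LT-HSC, at Fli1 (-3) and Ets1 (-5). These counts ranged from -1 to 5 at Elf1, -3 to 8 at Fli1 and -5 to 3 at Ets1 over the libraries left out. No paired analysis was possible because detection calls come from no test, and the replicate numbers only name the libraries. Peak lists without tag counts limit the depth of every statement here to whether a peak was called.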
